A study of Homo sapiens with 6 samples.

Results

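The AP-1 transcription factor genes examined here were FOS, FOSB, FOSL1, FOSL2, JUN, JUNB, JUND and BATF3. They were chosen by name, by matching the Ensembl gene IDs of the count table to symbols, and all 8 were found among 58299 gene IDs. The 6 samples were of AC16, an established human cell line made by fusing cells of adult ventricle with a fibroblast line. Of these, 3 were cultured for 48 h with 100 nM doxorubicin, an anthracycline that poisons type II topoisomerases, and 3 for the same time with the vehicle alone, 0.1% DMSO. The series title sets the study in the protection of AC16 cells from doxorubicin by NRF2 activation with CDDO-Me. No sample analysed here received CDDO-Me. The comparison asks how the RNA of these genes differed between doxorubicin and vehicle at that single time.

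AP-1 is a dimer of basic leucine zipper proteins. Jun proteins pair with each other or with Fos proteins, while Fos proteins generally bind DNA after pairing with a Jun or related partner. BATF3 lacks a long activation domain and also pairs with Jun proteins. The dimers bind the sequence TGA(C/G)TCA, called the TRE, and the related cyclic AMP response element TGACGTCA, called the CRE. TRE matches were searched here with the looser string TGANTCA. FOS, FOSB, JUN and JUNB are classical immediate-early genes, whose RNA rises briefly after growth factors, cytokines or stress. JUND is expressed more steadily in many cells. MAP kinases act on the pathway at the promoters of these genes and by phosphorylating the proteins.

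CRE-like and TRE-like elements in the promoters of the AP-1 genes are shown because several of these genes are themselves known to be induced through such sites. RefSeq promoter windows, 250 bases before to 50 bases after the start on GRCh38.p14, were matched for 6 of the 8 genes. FOSL1 and BATF3 were not matched. Each line gives 30 bases of the gene's strand with the matched letters in capitals.
FOS, CRE core, chr14:75278752-75278781: tggttgagcccgTGACGTttacactcattc
FOSB, CRE core, chr19:45467924-45467953: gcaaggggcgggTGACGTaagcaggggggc
FOSL2, CRE core, chr2:28392780-28392809: ggagtctggggtTGACGTgagtgaatccac
FOSL2, TRE, chr2:28392851-28392880: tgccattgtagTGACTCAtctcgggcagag
JUN, JUN-type site, chr1:58784096-58784125: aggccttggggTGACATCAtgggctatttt
JUND, full CRE, chr19:18281804-18281833: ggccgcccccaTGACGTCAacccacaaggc
JUN and JUND lie on the minus strand and the other genes shown on the plus strand. Positions are counted from the RefSeq start, with -1 the base before it. That start differs from the end of the gene span in the count table for FOS, FOSB, JUN (58780788-58784327) and FOSL2 (28392448-28417312). The elements printed for JUN and FOSL2 lie inside their spans. The CRE core TGACGT began at position -64 in FOS, -60 in FOSB and -66 in FOSL2. JUN had the variant TGACATCA at -67. JUND had the full CRE at -200 and another CRE core, on the opposite strand, at -87. A match on either strand was counted, and each full CRE contains the core on both strands. The CRE core was in 4 of these 6 windows, against 7.98% of 35116 windows of the same length. The full CRE was in 1.85% of those windows, the looser TRE string TGANTCA in 7.71% and the JUN-type site in 2.61%. The JUNB window held none of the 4 strings. It held a TATA box, TATAAA, at -31. Matches to these letters are descriptions of the windows and were not measured as bound sites.

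Total counts ranged from 17252862 to 19571731 per library. Nothing in the labels tells whether replicate libraries stem from different cultures, and the p-values therefore refer to the spread among these samples, possibly a technical one. Levels are CPM, counts scaled to the library total after correction by TMM (the trimmed mean of M values), as mean ± SD with n = 3. On the log2(CPM + 1) scale, correlations across genes were 0.995 to 0.997 within groups and 0.947 to 0.958 between groups. Of 14 cardiomyocyte markers, 12 did not pass the filter on low counts, including TNNT2, MYH6, MYH7 and NKX2-5. The summed level of the 14 was 6.76 to 8.84 CPM in DMSO and 15.7 to 17.6 CPM in doxorubicin. Most of that sum came from TTN, with 5.93 ± 0.273 and 8.35 ± 1.24 CPM, and NPPB, with 0.619 ± 0.423 and 6.52 ± 0.881 CPM. The 12 fibroblast markers summed to 15887 to 18185 CPM in DMSO and 5607 to 8287 CPM in doxorubicin. Of these, 7 fell, POSTN rose and 4 were not called, and COL1A1 alone had 9864 ± 990 CPM in DMSO and 3156 ± 730.3 CPM in doxorubicin. Their part in the results was not tested. In bulk RNA, fewer cells of a type and less RNA per cell cannot be told apart.

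Within the AP-1 genes, FOSB, JUNB and JUND rose after doxorubicin, JUN and BATF3 fell, and FOS, FOSL1 and FOSL2 were not called. The test was edgeR's quasi-likelihood test over 15358 genes, two-sided with Benjamini-Hochberg adjustment, and calls required an adjusted p below 0.05. The 3 of 8 AP-1 genes called higher stand against 32.7% of all tested genes, and the 2 of 8 called lower stand against 32.0%. In either direction 64.7% of all tested genes were called. The counts for the AP-1 genes were therefore near the background of this comparison. The groups were fully separate in 5 of the 8, beside 69.1% of tested genes. The median log2 fold change of the 8 was 0.03, beside -0.0013 over all tested genes. All 8 passed the filter on low counts. FOSB was the 1 member that changed at least 2-fold.

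**Figure D1:**
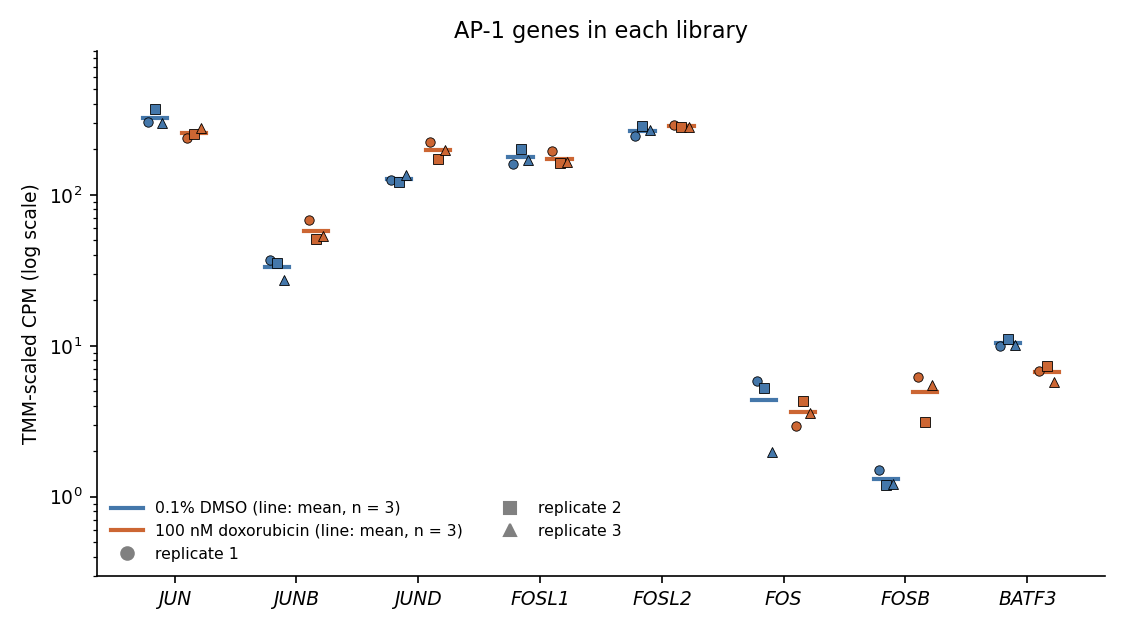
TMM-scaled CPM of each AP-1 gene in each library on a log axis, with DMSO in blue, doxorubicin in orange, the replicate by marker shape and a line at the group mean (n = 3). The groups were fully separate for JUN, JUNB, JUND, FOSB and BATF3 and overlapped for FOS, FOSL1 and FOSL2.

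Among the Jun genes, which supply the obligate partner of Fos proteins, JUN fell while JUNB and JUND rose. JUN (ENSG00000177606, chr1:58780788-58784327, minus strand, GRCh38) is a gene of 1 exon and encodes c-Jun, a strong activator and the classical target of JNK. Its level was 302, 369 and 298 CPM in DMSO replicates 1 to 3 and 240, 254 and 279 CPM in doxorubicin replicates 1 to 3. Every doxorubicin library was below every DMSO library, and DMSO replicate 2 was the highest of the 6. The means were 323 ± 40.2 and 257 ± 19.8 CPM, a 1.26-fold fall. The log2 fold change was -0.33 with an SE of 0.08, at an adjusted p of 0.00343 in edgeR. This was a small change for these data, as 61.7% of tested genes had a larger absolute log2 fold change. The JUN-type promoter element shown above belongs to this gene.

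JUNB (ENSG00000171223, chr19:12791496-12793315, plus strand) also has 1 exon, and its protein is a weaker activator than c-Jun that can restrain it. Its level was 37.2, 35.1 and 27.4 CPM in DMSO and 67.95, 50.7 and 53.6 CPM in doxorubicin. Every doxorubicin library was above every DMSO library, with doxorubicin replicate 1 the highest. The means were 33.2 ± 5.12 and 57.4 ± 9.25 CPM, a 1.73-fold rise (log2 fold change 0.79 ± 0.13 SE, adjusted p = 0.000441, edgeR). Exons of HOOK2, on the opposite strand, cover 14.2% of the JUNB exon sequence, and the unstranded libraries do not separate the strands. HOOK2 moved the other way, from 16.4 ± 1.59 to 12.5 ± 1.21 CPM (adjusted p = 0.00646, edgeR).

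JUND (ENSG00000130522, chr19:18279760-18281622, minus strand) has 1 exon block and encodes the most steadily expressed Jun protein, known for slowing proliferation and limiting oxidative stress. Its level was 125, 121 and 135 CPM in DMSO and 225, 173 and 197 CPM in doxorubicin. The groups did not overlap, and the lowest doxorubicin library was replicate 2. The means were 127 ± 6.95 and 198 ± 25.9 CPM, a 1.56-fold rise (log2 fold change 0.64 ± 0.08 SE, adjusted p = 9.02e-06, edgeR). It is the gene whose promoter window held the full CRE. Without doxorubicin replicate 1, the highest library for both genes, the log2 fold change was 0.65 for JUNB and 0.54 for JUND, and both stayed under the threshold.

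The JUN share of Jun family RNA was lower, and the JUNB and JUND shares higher, in every doxorubicin library than in every DMSO library. To compare genes, levels were divided by exon length, giving CPM per kilobase (kb). In DMSO, JUN made up 49.3, 55.3 and 49.1% of the summed Jun level of the 3 libraries, and in doxorubicin 29.99, 37.3 and 36.8%. JUND made up 38.9, 34.5 and 42.2% in DMSO and 53.5, 48.3 and 49.4% in doxorubicin. Per kb, JUN was thus the largest share in all 3 DMSO libraries and JUND in all 3 doxorubicin libraries. Without division by exon length JUN was the largest share in all 6 libraries, at 66.7 ± 3.12% in DMSO and 50.3 ± 4.56% in doxorubicin, while JUND was at 26.4 ± 3.15% and 38.6 ± 3.21%. The order of the pair in doxorubicin therefore rests on the annotated exon lengths, 3540 bases for JUN and 1863 for JUND. JUNB was 10.3 ± 1.51% of the sum in DMSO and 14.9 ± 1.45% in doxorubicin (SD, n = 3). For each of these 3 shares the groups did not overlap, which in an exact two-sided permutation test gives p = 0.10, the smallest p that 3 against 3 samples allow. The summed Jun level was 178 ± 9.50 CPM per kb in DMSO and 211 ± 16.9 CPM per kb in doxorubicin (exact permutation p = 0.10). The shares are built from the same counts as the fold changes above and add no independent evidence.

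**Figure D2:**
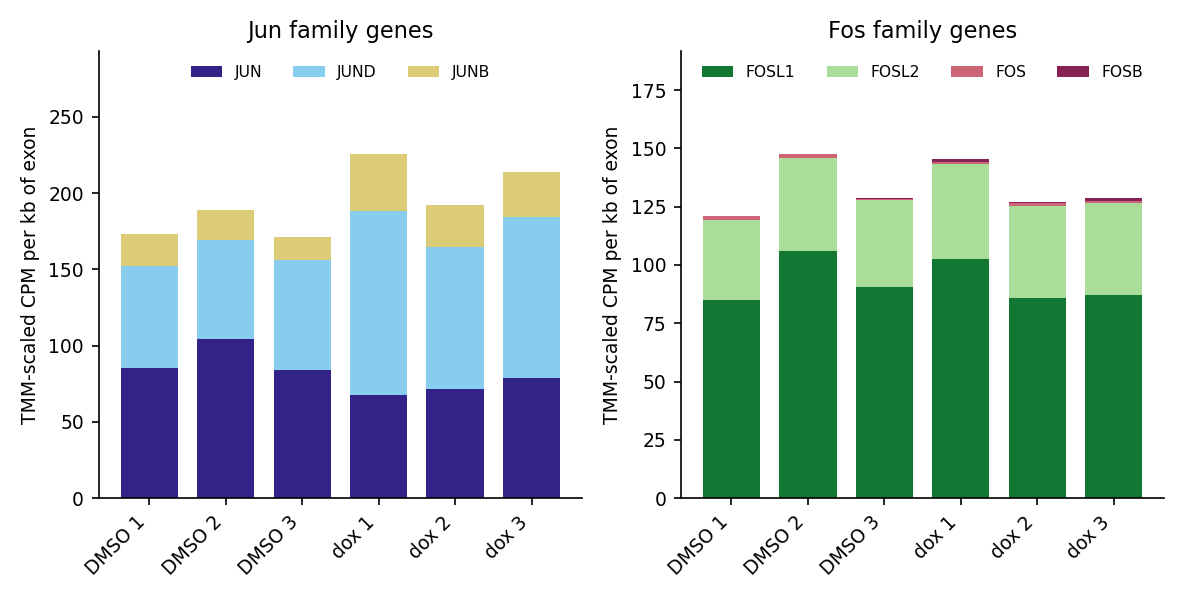
Levels of the Jun family (left) and Fos family (right) genes in each library, in TMM-scaled CPM per kb of exon, stacked so that the bar height is the family sum. JUN is the largest Jun segment in the 3 DMSO bars and JUND in the 3 doxorubicin bars, while FOSL1 and FOSL2 fill nearly all of every Fos bar.

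Fos family RNA came almost wholly from FOSL1 and FOSL2, and neither was called. FOSL1 (ENSG00000175592, chr11:65892049-65900573, minus strand) encodes FRA1, a Fos protein without the activation domain of c-Fos, and its level was 160, 199.97 and 171 CPM in DMSO and 194, 162 and 164 CPM in doxorubicin. The groups overlapped throughout, with 1 high library in each: DMSO replicate 2 and doxorubicin replicate 1. The means were 177 ± 20.7 and 173 ± 17.6 CPM, with an edgeR adjusted p of 0.793 for a log2 fold change of -0.03 ± 0.09 SE. The 95% interval of the ratio of doxorubicin to DMSO ran from 0.858 to 1.12. FOSL2 (ENSG00000075426, chr2:28392448-28417312, plus strand), which encodes the related FRA2, had 246, 285 and 268 CPM in DMSO and 290, 280 and 283 CPM in doxorubicin. DMSO replicate 2 lay within the range of the doxorubicin libraries and the other DMSO libraries lay below it. The means were 266 ± 19.5 and 285 ± 5.21 CPM. The log2 fold change was 0.10 ± 0.06 SE (adjusted p = 0.202, edgeR), and the ratio's 95% interval was 0.973 to 1.18. FOSL2 is the member with both a CRE core and a TRE in its window.

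FOS (ENSG00000170345, chr14:75278774-75282230, plus strand), which encodes c-Fos, was low in both groups. It had 105, 101 and 36 counts in DMSO and 52, 82 and 64 counts in doxorubicin, or 5.87, 5.26 and 1.99 CPM against 2.95, 4.33 and 3.58 CPM. DMSO replicate 3 was the lowest of all 6 libraries and DMSO replicate 1 the highest, so the doxorubicin values lay inside the DMSO range. The exact 95% counting interval of the 36 counts, 25.2 to 49.8, did not meet that of the 101 counts, 82.3 to 123, so the DMSO libraries differed beyond counting error. The means were 4.37 ± 2.09 and 3.62 ± 0.687 CPM. The log2 fold change was -0.27 ± 0.35 SE (adjusted p = 0.529, edgeR), and the ratio's 95% interval, 0.478 to 1.44, includes both a fall and a rise. Without DMSO replicate 3 FOS was called lower, with a log2 fold change of -0.62 (adjusted p = 0.0146, edgeR). Across all alternatives its adjusted p ran from 0.0146 to 0.977.

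FOSB (ENSG00000125740, chr19:45467995-45475179, plus strand) had the largest fold change of the AP-1 genes and, in DMSO, the lowest level. It encodes a Fos protein and, by alternative splicing, the stable truncated form known as delta-FosB. The counts do not separate these forms. There were 27, 23 and 22 counts in DMSO and 110, 59 and 98 counts in doxorubicin, or 1.51, 1.20 and 1.21 CPM (3 close values) against 6.25, 3.11 and 5.48 CPM. The groups did not overlap, and doxorubicin replicate 2 was the lowest treated library. The counting interval of its 59 counts, 44.9 to 76.1, lay above that of the highest DMSO count, 17.8 to 39.3. The means were 1.31 ± 0.175 and 4.95 ± 1.64 CPM. FOSB rose 3.76-fold (log2 fold change 1.91 ± 0.27 SE, adjusted p = 1.16e-05, edgeR). Of all tested genes, 7.46% had a larger absolute change.

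**Figure D3:**
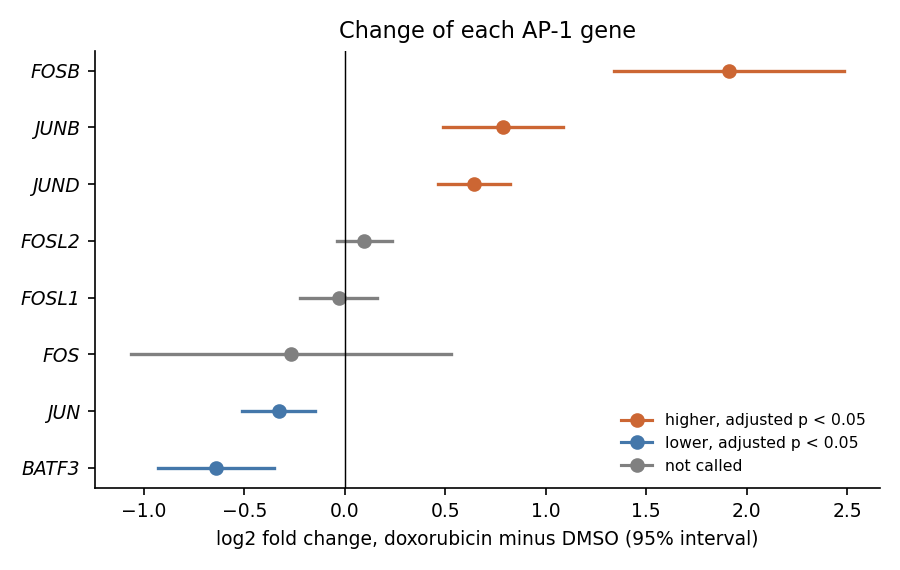
Log2 fold change of each AP-1 gene, doxorubicin minus DMSO, with its 95% interval from the edgeR fit over 15358 genes. Orange genes were called higher, blue genes lower and grey genes were not called, with FOSB at 1.91, JUNB at 0.79, JUND at 0.64, JUN at -0.33 and BATF3 at -0.64, and the FOS interval the widest.

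In the summed Fos level per kb of exon, FOSL1 made up 70.7 ± 0.992% in DMSO and 68.7 ± 1.74% in doxorubicin (SD, n = 3). FOSL2 made up 28.1 ± 1.08% and 29.8 ± 1.65%. The exact permutation p was 0.30 for each of these shares. FOSB was 0.180 ± 0.0400% of the sum in DMSO and 0.661 ± 0.191% in doxorubicin (exact permutation p = 0.10, the smallest possible), while FOS was 1.02 ± 0.513% and 0.847 ± 0.212% (exact permutation p = 0.60). The summed Fos level was 132 ± 13.6 CPM per kb in DMSO and 134 ± 10.1 CPM per kb in doxorubicin (exact permutation p = 1). Without division by exon length the FOSB share was 0.295 ± 0.0630% in DMSO and 1.05 ± 0.315% in doxorubicin, and FOSL2 was the largest share, at 59.4 ± 1.34% in DMSO and 61.1 ± 1.91% in doxorubicin. The lengths are those of all annotated exons together, 1887 bases for FOSL1 and 7157 for FOSL2, so the order of the pair rests on the transcript forms being in proportion to them.

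BATF3 (ENSG00000123685, chr1:212686418-212699985, minus strand) encodes a small basic leucine zipper protein best known for its role in dendritic cells. Its level was 10.0, 11.1 and 10.1 CPM in DMSO and 6.82, 7.39 and 5.76 CPM in doxorubicin. The groups were fully separate, and the DMSO libraries lay close together. The means were 10.4 ± 0.615 and 6.66 ± 0.824 CPM, a 1.56-fold fall (log2 fold change -0.64 ± 0.14 SE, adjusted p = 0.000582, edgeR). Of 5 blood cell markers, CLEC9A, a marker of the dendritic cells that need BATF3, had no count in any library. The other blood cell markers, PTPRC, CD14, ITGAX and CD3E, together reached 1.84 to 2.76 CPM in DMSO and 2.43 to 3.36 CPM in doxorubicin, and 0 of the 2 tested were called by edgeR.

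Per kb of exon, the order of levels differed at the top. In DMSO it was FOSL1 (93.7 ± 11.0 CPM per kb), JUN (91.2 ± 11.3), JUND (68.2 ± 3.73), FOSL2 (37.2 ± 2.72), JUNB (18.3 ± 2.81), BATF3 (3.83 ± 0.227), FOS (1.35 ± 0.644) and FOSB (0.235 ± 0.0315). FOSL1 and JUN overlapped in their ranges, and every other pair of neighbours in that order was separate. In doxorubicin JUND came first at 106 ± 13.9 CPM per kb, followed by FOSL1 at 91.9 ± 9.35 and JUN at 72.7 ± 5.61, and the ranges of JUND and FOSL1 overlapped. The members from FOSL2 downward kept their places. FOS and FOSB, at 1.12 ± 0.212 and 0.891 ± 0.294 CPM per kb, then overlapped as well. These are orders of levels between genes, described without a test.

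The libraries varied in a shared way within groups. Among doxorubicin libraries, replicate 1 was the highest for JUNB, JUND, FOSB, FOSL1 and FOSL2 and the lowest for JUN and FOS. DMSO replicate 2 was the highest DMSO library for JUN, FOSL1, FOSL2 and BATF3. Leaving out each library in turn kept FOSB, JUNB and JUND called higher and JUN and BATF3 called lower. JUN moved most toward zero without DMSO replicate 2, at a log2 fold change of -0.23.

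Other basic leucine zipper genes that pair with Jun or Fos proteins, or form AP-1-like dimers, mostly rose. Of 12 in the list 11 were tested, 8 rose, 5 of them at least 2-fold, and 1 fell, where 32.7% of all tested genes were called higher and 32.0% lower. Their median log2 fold change was 0.99. BATF and BATF2, both among those that rose at least 2-fold, passed the filter on low counts only through the doxorubicin libraries. They could therefore be called only as higher. BATF had 0.199 ± 0.0848 CPM in DMSO and 1.38 ± 0.594 CPM in doxorubicin, and BATF2 had 0.309 ± 0.121 and 1.47 ± 0.201 CPM. ATF3, a stress-induced partner of Jun proteins, rose from 17.6 ± 2.32 to 116 ± 1.20 CPM. The small Maf genes MAFK and MAFG, whose proteins lack an activation domain and also pair with NRF2, rose from 56.6 ± 6.93 to 161 ± 11.9 CPM and from 53.4 ± 2.34 to 106 ± 11.2 CPM. Exons of the opposite-strand gene TMEM184A, with 240 counts against 11898, cover 18.1% of the MAFK exon sequence. ATF2, a CRE-binding partner of c-Jun, was the 1 member that fell, from 48.4 ± 0.514 to 35.5 ± 1.64 CPM.

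**Figure D4:**
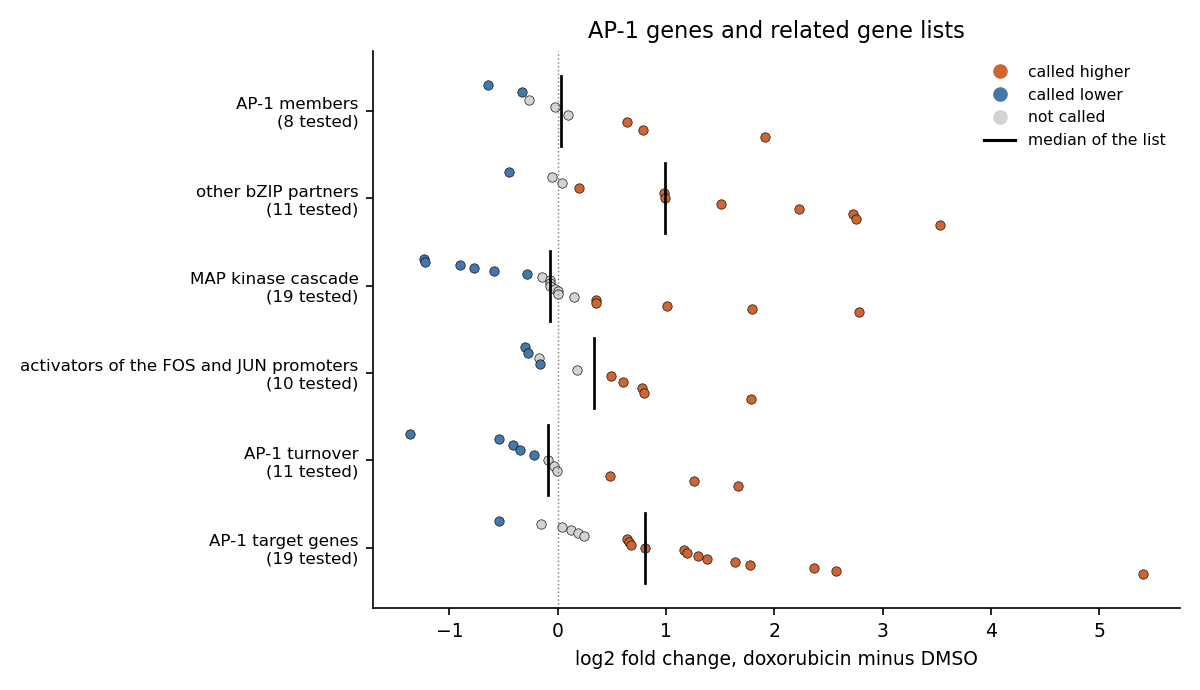
Log2 fold change, doxorubicin minus DMSO, of every tested gene in the AP-1 set and 5 related lists, colored by edgeR call, with a black line at each list's median. The medians were 0.03 for the AP-1 genes, 0.99 for other bZIP partners and -0.07 for the MAP kinase cascade. They were -0.09 for AP-1 turnover and 0.81 for AP-1 target genes. The list labeled activators of the FOS and JUN promoters, whose effect there was not tested, had a median of 0.34.

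MAP kinase genes were called in both directions at shares near or below those of all tested genes. Of 19, 5 rose (MAPK10, MAPK11, MAPK13, MAP2K3 and MAP2K4), 6 fell and 8 were not called, and the median log2 fold change was -0.07. These counts are 26.3% higher and 31.6% lower, beside 32.7% and 32.0% of all tested genes. The p38 delta gene MAPK13 rose from 5.48 ± 0.682 to 37.7 ± 9.26 CPM, by 2.78 on the log2 scale (edgeR adjusted p = 1.80e-07), and the p38 beta gene MAPK11 from 13.6 ± 2.56 to 47.0 ± 0.753 CPM. MAPK3, which encodes ERK1, fell from 85.6 ± 3.12 to 36.5 ± 2.50 CPM. MAP3K5, the kinase ASK1 upstream of JNK and p38, fell from 25.5 ± 3.94 to 13.6 ± 0.744 CPM. The JNK genes MAPK8 and MAPK9, whose products phosphorylate c-Jun, were not called, with log2 fold changes of -0.07 and 0.0047. MAPK10, the third JNK gene, rose from 0.687 ± 0.113 to 1.39 ± 0.222 CPM, a call that DESeq2 did not make (adjusted p = 0.0847). The MAP2K3 call was lost without any 1 of the doxorubicin libraries, with adjusted p up to 0.149 in edgeR.

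Of 10 genes for factors that act at the FOS and JUN promoters, 5 rose (ELK3, ELK4, MEF2A, MEF2C and MEF2D). Another 3 fell (ELK1, MRTFA and CREB1), and the median log2 fold change was 0.34. Whether each factor activates or represses these promoters in AC16 was not tested. The 5 and 3 of 10 stand beside 32.7% called higher and 32.0% called lower among all tested genes. MEF2C, at 0.232 ± 0.181 CPM in DMSO and 0.829 ± 0.120 CPM in doxorubicin, passed the filter on low counts only through the doxorubicin libraries. It could therefore be called only as higher, and it was not tested with the filter of 1 CPM in 3 libraries. CREB1, at 54.8 ± 1.97 and 48.8 ± 2.27 CPM, was close to the threshold (adjusted p = 0.0484, edgeR), and its call was lost in 12 of 13 alternatives, with adjusted p up to 0.137. ELK proteins join serum response factor at the FOS promoter. ELK3 rose from 63.9 ± 5.81 to 111 ± 13.6 CPM and ELK4 from 50.3 ± 4.12 to 76.3 ± 3.50 CPM, while ELK1 fell from 93.1 ± 5.07 to 75.6 ± 4.65 CPM. MEF2D and MEF2A, of a factor family that binds the JUN promoter, rose from 54.97 ± 2.84 to 94.4 ± 5.01 CPM and from 53.1 ± 3.04 to 74.9 ± 1.14 CPM. Exons of LYSMD4, on the opposite strand, cover 11.1% of the MEF2A exon sequence. SRF, serum response factor itself, was not called, at 112 ± 15.1 and 127 ± 4.88 CPM, but was called higher with library totals only, with the replicate block and without DMSO replicate 3 (adjusted p = 0.00535 in the last, edgeR).

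Genes that control the turnover of AP-1 proteins and mRNAs also divided. Of 11, 3 rose (FBXW7, ZFP36L1 and ZFP36L2), 5 fell (DET1, COPS5, ZFP36, KHSRP and HNRNPD) and 3 were not called, and their log2 fold changes had a median of -0.09. Those called higher were 27.3% and those called lower 45.5%, beside 32.7% and 32.0% of all tested genes. FBXW7, a ubiquitin ligase subunit that recognises phosphorylated c-Jun, rose from 15.7 ± 2.49 to 37.5 ± 0.951 CPM, by 1.26 on the log2 scale (edgeR adjusted p = 2.16e-08). ZFP36L2, which promotes decay of mRNAs with AU-rich elements, rose from 73.5 ± 8.83 to 234 ± 22.4 CPM. HNRNPD, the AU-rich element binding protein AUF1, fell from 338 ± 6.88 to 131 ± 6.88 CPM, and DET1, an adaptor of a ligase for c-Jun, fell from 8.70 ± 0.465 to 5.96 ± 0.901 CPM. The ZFP36 call (adjusted p = 0.0486, edgeR) was lost in 9 of 13 alternatives, with adjusted p up to 0.193. Without doxorubicin replicate 2 the members called lower numbered 3, with COPS5 and ZFP36 not called.

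AP-1 target genes rose more often than they fell. Of 23 in the list 19 were tested, of which 13 rose, 9 of them at least 2-fold, 1 fell and 5 were not called, and their log2 fold changes had a median of 0.81. The tested genes as a whole had 32.7% higher and 32.0% lower. MMP1, among those that rose at least 2-fold, had 1, 0 and 0 counts in DMSO and 29, 14 and 14 in doxorubicin. It passed the filter on low counts only through the doxorubicin libraries and could be called only as higher. Many of these targets also answer to NF-kB or other factors. IL6 rose from 3.08 ± 0.872 to 18.3 ± 2.11 CPM, by 2.57 on the log2 scale (edgeR adjusted p = 1.70e-09), with 20.7% of its exon bases in exons of opposite-strand IL6-AS1. VEGFA, the angiogenic growth factor, rose from 43.3 ± 3.11 to 223 ± 37.1 CPM, and the cytokine gene IL11 from 48.95 ± 11.1 to 168 ± 13.8 CPM. CCND1, cyclin D1, rose from 175 ± 48.3 to 546 ± 31.2 CPM, with 10.3% of its exon bases in exons of opposite-strand LTO1. EZR, which encodes the membrane linker ezrin, was the 1 member that fell, from 532 ± 33.1 to 366 ± 4.10 CPM. Without DMSO replicate 1 the members called lower numbered 2.

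TRE matches in the promoter windows of these targets are shown because they are the sequence AP-1 dimers bind. Windows were matched for 14 of the 23 genes, and 6 held the string TGANTCA: MMP10, PLAUR, CXCL8, IL11, IVL and EZR. The MMP10 match was TGAATCA, which is not the TRE TGA(C/G)TCA. MMP10 and IVL did not pass the filter on low counts. The other four are printed, each as 30 bases of the gene's strand with the TRE in capitals.
CXCL8, chr4:73740421-73740450: aggaagtgtgaTGACTCAggtttgccctga
IL11, chr19:55370541-55370570: ggcagggagggTGAGTCAggatgtgtcagg
PLAUR, chr19:43670337-43670366: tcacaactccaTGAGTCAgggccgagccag
EZR, chr6:158818273-158818302: gggcggggcgcTGACTCAcccgggcccggg
CXCL8 lies on the plus strand and the other genes on the minus strand. CXCL8, the neutrophil chemokine interleukin 8, rose from 5.61 ± 1.08 to 9.84 ± 1.37 CPM. IL11 rose and EZR fell as given above. PLAUR, the urokinase receptor, was not called, at 105 ± 19.5 and 120 ± 14.7 CPM (adjusted p = 0.293, edgeR), but was called higher without DMSO replicate 2 (adjusted p = 0.0284). Genes with the same element in these windows therefore moved in different directions.

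The patterns most like those of FOSB and BATF3, the called members with the highest and lowest fold change, were sought among 12963 protein-coding genes. Likeness was the root mean square difference of log2 CPM over the 6 libraries after centring each gene. Nearest to FOSB were PLPPR3 (difference 0.133), PWWP2B (0.147) and ABCG4 (0.173), with log2 fold changes of 1.71, 1.92 and 2.04. Nearest to BATF3 were CSF1R (0.0445), BRD3OS (0.0507) and TTC8 (0.0561), with log2 fold changes of -0.70, -0.60 and -0.68. The FOSB neighbours were at low levels like FOSB itself, from 0.728 to 1.91 CPM in DMSO. CSF1R was also low, below BATF3 itself, at 2.03 CPM in DMSO and 1.25 CPM in doxorubicin (adjusted p = 0.0220, edgeR).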

How the data were processed

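Poly(A) RNA of 6 AC16 samples was sequenced from unstranded TruSeq v2 libraries, per the labels' protocols. The authors deposited raw counts per gene in the column layout of featureCounts, with summed exon length. GRCh38 (hg38), STAR, SAMtools, Subread and featureCounts are named in the submitters' processing notes. Versions, settings and the handling of reads in overlapping genes are not given in the sources used here. The table held 0 columns beyond these 6 libraries. Of 58299 IDs, 57717 had a symbol in the gene name table, and GENCODE 29 supplied gene types. All 8 AP-1 genes had the same span in GENCODE 29.

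The test on counts was that of edgeR 4.0.16 (R 4.3.3), with filterByExpr (minimum count 10, minimum total 15), TMM, robust quasi-likelihood F test without covariates and Benjamini-Hochberg over all tested genes. The procedure was tested on simulated data in which far fewer genes changed than were called here. That check therefore does not cover a comparison with so many changes. The SE was approximated as the log2 fold change over the root of its F value. TMM makes changes relative, and a common shift of every gene would go undetected. Same-group libraries differed by more than sampling noise (chi-square per degree of freedom 2.82 to 9.39). Counting intervals are exact 95% Poisson intervals and cover counting error only. A count of 0 in a library allows up to 3 counts at a one-sided 95% limit, unlike these two-sided intervals.

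The AP-1 genes and lists were chosen with earlier results of these data known. Named list genes are the 4 called genes of largest absolute change whose mean log2 CPM was 1 or more, and all that moved one way where 5 or fewer did. MAPK8, MAPK9, SRF, CXCL8 and PLAUR were named after their values were seen. A gene that this rule would name is not reported here. Alternatives were RLE, upper-quartile and no scaling, DESeq2 1.42.0, other filters, the replicate number as a block, and leaving out each library.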

Additional observations from a re-analysis of the deposited data

How the results depend on the processing

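FOSB, JUNB and JUND stayed called higher and JUN and BATF3 called lower under RLE scaling, upper-quartile scaling, library totals only, DESeq2, no filter, a filter of 1 CPM in 3 libraries, the replicate block and each library left out. FOSL1, which was never called, changed sign with library totals only (0.013) and without DMSO replicate 2, doxorubicin replicate 2 or doxorubicin replicate 3, its log2 fold change running from -0.12 to 0.060 over the libraries left out. FOS ran from -0.62 to -0.014 and was called only without DMSO replicate 3. The number of AP-1 genes called lower was 2 to 3. Of the related lists, the AP-1 turnover genes called lower numbered 3 to 5 and the AP-1 target genes called lower 1 to 2 over the libraries left out. Factors acting at the FOS and JUN promoters that were called lower numbered 3, and 4 with no filter. They numbered 2 under RLE, upper-quartile, library totals only, DESeq2, the 1 CPM filter, the replicate block and 4 of the 6 libraries left out. In a check of the named list genes under the same alternatives, added after the data were seen, MAPK9, which was never called, changed sign with DESeq2 (-0.0038) and with no filter (-0.024), and ran from -0.038 to 0.077 over the libraries left out. Of the called ones CREB1, ZFP36, MAP2K3, MAPK10 and COPS5 each lost the call in at least 1 alternative. The change in the FOS share of the Fos family level ran from -0.451 to 0.0578 percentage points, positive without DMSO replicate 1. The change in the FOSB share was 0.481 percentage points, and 0.759 without division by exon length. The cause was not tested, except that the last follows from the longer FOSB exons counting for more.

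No pairing by the replicate numbers in the titles was visible. Deviations from the group means correlated at 0.05, -0.02 and 0.03 for replicates 1, 2 and 3, and not every sample correlated best with its own number. These correlations cannot tell whether samples were handled in pairs. With the replicate block 5003 genes were higher and 4917 lower, against 5017 and 4917 without it, and it changed no call among the AP-1 genes. The block lowered the SE for JUNB (0.134 to 0.0891), FOS (0.351 to 0.280), FOSB (0.270 to 0.230), JUN and JUND. It slightly raised the SE for FOSL1, FOSL2 and BATF3. Depth limited FOS and FOSB most, with 242 and 72 counts over the DMSO libraries.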
